A study of Homo sapiens with 6 samples.

Results

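Polycomb repressive complex 2 (PRC2) was followed through 10 genes, chosen by symbol from a table of 23686 genes: its catalytic subunits EZH1 and EZH2, the core subunits SUZ12, EED, RBBP4 and RBBP7, and the accessory subunits JARID2, PHF19, MTF2 and PHF1. All 10 were present, and all 10 passed the filter for testing (at least 10 reads in at least 2 libraries), with between 359 and 10356 reads per gene and library. The genes were proposed with results of these libraries known, the low SUZ12 level after LGR6 siRNA among them. The members' differences between LGR6 siRNA and control siRNA are therefore given as description, with no p-value and with their count past the threshold printed only beside that of all genes. Tests are given for siRNA 4 against siRNA 2 and for HCC15 against A427.

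The study measured mRNA in 2 human non-small cell lung carcinoma lines, HCC15 and A427, both labelled wild type. Each line was transfected with LGR6 siRNA number 2, LGR6 siRNA number 4 or a control siRNA labelled Tax, and was collected at 48 h. Cells grew in RPMI medium with 5% fetal bovine serum, and 1 library was made for each line and siRNA, 6 in all, with 3 for each line. The lines thus differ in origin, and each is 1 established culture, while the siRNAs are the same reagents in both lines. LGR6 encodes a leucine-rich repeat receptor that binds R-spondins.

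PRC2 places methyl groups on lysine 27 of histone H3, a mark of silenced developmental genes. EZH1 or EZH2 carries the methyltransferase activity, but only when bound to EED and SUZ12; RBBP4 and RBBP7 bind histones, and the accessory subunits steer the complex to CpG islands and define its PRC2.1 form (PHF1, MTF2 or PHF19) and its PRC2.2 form (JARID2 with AEBP2). EZH2 is typically high in dividing cells and EZH1 in resting ones.

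Libraries held 25546419 to 28987901 reads, and no 2 libraries shared a line and an siRNA, so no group had a replicate. The tests rest on how far the siRNA differences departed from each other between the lines, with 2 residual degrees of freedom. The spread of each gene was moderated toward that of all genes, so the p-values also rest on this shared estimate. LGR6 itself had 39 reads with siRNA 2 and 77 reads with siRNA 4 in HCC15, against 257 reads in its control library. In A427 it had 0 reads with either LGR6 siRNA, against 5 reads in the control library, so the knockdown could barely be measured there. Of 5 epithelial markers, KRT8 was at 1451 to 3694 TPM in HCC15 and 275.6 to 389 TPM in A427 (TPM is a relative level scaled by transcript length). KRT18 was at 2117 to 4072 TPM in HCC15 and 307 to 420 TPM in A427. EPCAM went the other way, at 27.6 to 53.85 TPM in HCC15 and 403 to 457 TPM in A427. CDH1 was at 5.64 to 45.97 TPM in HCC15 and 3.11 to 3.52 TPM in A427, and KRT19 at 12.05 to 36.7 TPM in HCC15 and 0.18 to 0.38 TPM in A427. The 45.97 TPM of CDH1 came from the HCC15 siRNA 2 library, against 8.16 TPM with control siRNA. With siRNA 4 against siRNA 2, 3 of the 5 were lower by edgeR's quasi-likelihood test, where 8.84% of all genes were lower. The median log2 difference of the 5 was -0.83, and 2 of them passed on log2(TPM + 1). The part of these differences in the subunit results was not tested. NKX2-1, a lung adenocarcinoma marker, was at most 0.11 TPM and TP63, a squamous marker, at most 0.07 TPM, so neither line carried the defining transcript of those subtypes. PTPRC, a leukocyte marker, was at most 1.58 TPM, and the endothelial genes PECAM1 and CDH5 were at most 0.02 TPM. In bulk RNA, fewer cells of a kind and less RNA per cell cannot be told apart.

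SUZ12 was the subunit gene with the largest distance from control. In HCC15 its normalised read count (CPM, reads scaled by library size after TMM) was 32.6 with siRNA 2 and 32.6 with siRNA 4, against 111 with control siRNA. In A427 it was 109 with siRNA 2 and 88.7 with siRNA 4, against 212 with control siRNA. All 4 LGR6 siRNA libraries were below the control library of their own line, and the A427 siRNA 2 library stood at the level of the HCC15 control library. As a share of the control, SUZ12 was at 29.4% with siRNA 2 (95% exact interval 27.3 to 31.7) and 29.4% with siRNA 4 (27.2 to 31.8) in HCC15. In A427 it was at 51.2% with siRNA 2 (49.0 to 53.5) and 41.9% with siRNA 4 (39.9 to 43.9). These intervals, like the others below, cover counting error only and not the spread between cultures. The line in which LGR6 was near 0 in its control library therefore also had less SUZ12 with both LGR6 siRNAs, and the remaining share was larger there than in HCC15. A difference in this share between the lines was not tested.

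The fitted log2 differences from control were -1.36 (SE 0.18) with siRNA 2 and -1.52 (SE 0.18) with siRNA 4. SUZ12 was the 1 member at least 1.5-fold below control with both siRNAs in both lines, a rule met by 142 of 14481 genes (0.981%); since the choice of genes used these values, nothing is read from that share. A pseudogene row, SUZ12P1, carried between 1.12% and 4.69% as many reads as SUZ12, and its log2 ratio to control was 0.30 with siRNA 2 and -0.15 with siRNA 4 in HCC15, and -0.28 with siRNA 2 and 0.16 with siRNA 4 in A427. Adding its reads to SUZ12 changed no call.

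**Figure D1:**
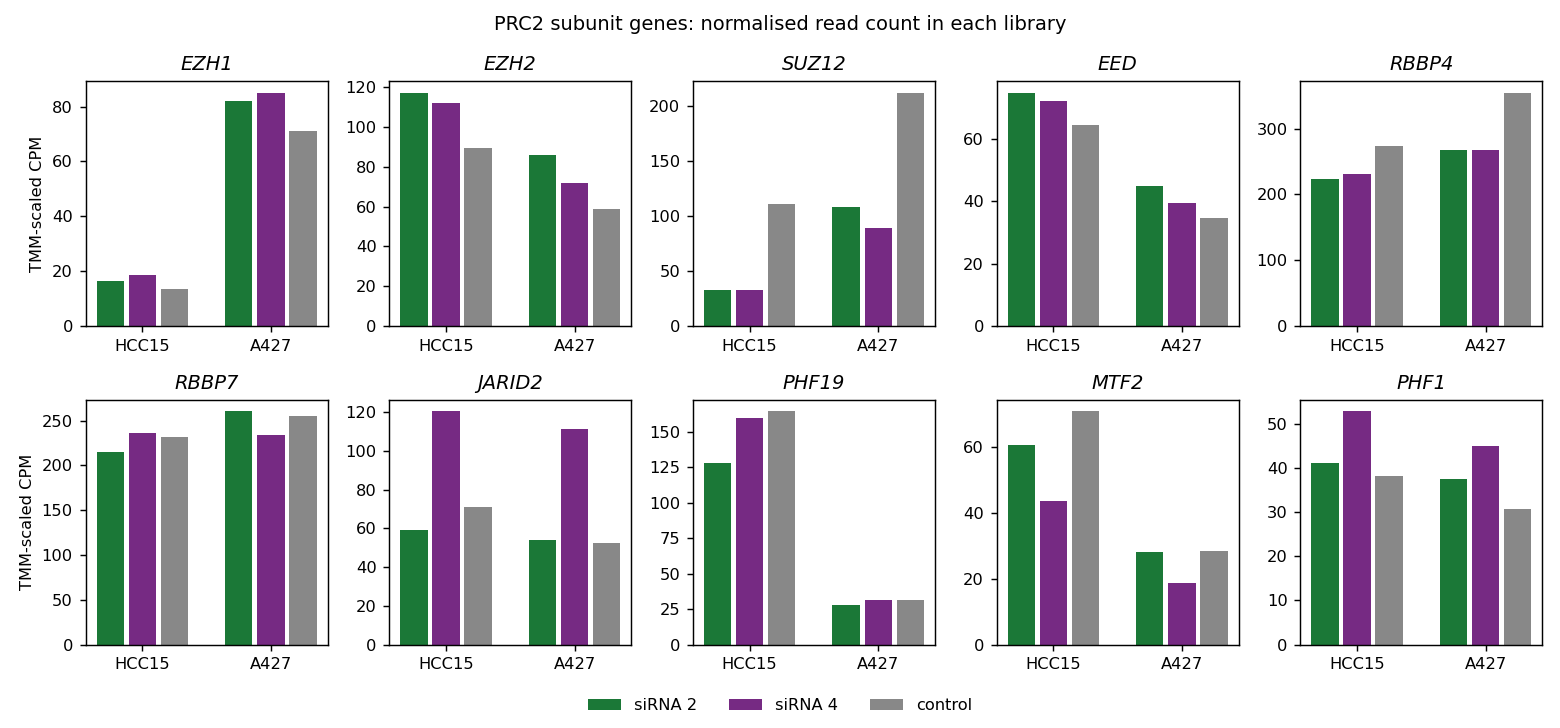
Normalised read counts (TMM-scaled CPM, vertical axes starting at 0) of the 10 PRC2 subunit genes, 1 bar per library, with HCC15 left of A427 and siRNA 2, siRNA 4 and control in that order. SUZ12 was at 32.6 and 32.6 in HCC15 with the LGR6 siRNAs, against 111 in the control, and JARID2 was high with siRNA 4 alone in both lines.

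The SUZ12 promoter is shown because this gene had the largest distance from control. It is given for the 250 bases before the RefSeq start (GRCh38.p14, plus strand, chr17:31936757-31937006), outside annotated exons, and is distinct from the hg19 build of the deposited tables. Capitals mark matches on either strand to CCAAT, to the GC box GGGCGG, to the cyclic AMP response element TGACGTCA and to the E2F words TTTCCCGC, TTTGGCGC, TTTCGCGC and TTTGCCGC. The 250 bases hold 1 CCAAT, 1 E2F word and 2 GC boxes.
SUZ12: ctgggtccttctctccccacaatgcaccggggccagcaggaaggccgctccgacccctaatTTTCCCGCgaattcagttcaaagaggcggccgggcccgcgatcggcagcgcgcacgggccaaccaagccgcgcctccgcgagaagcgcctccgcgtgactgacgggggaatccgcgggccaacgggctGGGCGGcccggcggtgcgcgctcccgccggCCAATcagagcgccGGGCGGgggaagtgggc
Of 35116 RefSeq promoter windows of 250 bases, 32.0% held CCAAT, 42.6% the GC box, 1.65% the cyclic AMP response element and 2.79% an E2F word. A match is a run of letters, not a measured binding site.

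The other core subunits lay closer to control. EED, which binds the methylated histone tail, was at 74.7 CPM with siRNA 2 and 72.0 CPM with siRNA 4 in HCC15, against 64.5 CPM with control siRNA. In A427 it was at 44.8 CPM with siRNA 2 and 39.4 CPM with siRNA 4, against 34.5 CPM with control siRNA. All 4 of its values with LGR6 siRNA lay above the control of their line, at between 112% and 129.7% of it. RBBP4, a histone chaperone shared with other chromatin complexes, was at 81.4% of control with siRNA 2 and 84.5% with siRNA 4 in HCC15, and at 75.3% with siRNA 2 and 75.4% with siRNA 4 in A427. RBBP7, its close homologue, stayed between 91.4% and 102% of control in the 4 libraries.

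The catalytic pair lay above control in all 4 LGR6 siRNA libraries. EZH2 had 117 CPM with siRNA 2 and 112 CPM with siRNA 4 in HCC15, against 89.5 CPM with control siRNA. In A427 it had 85.8 CPM with siRNA 2 and 71.7 CPM with siRNA 4, against 58.7 CPM with control siRNA. EZH1 was at 121% of control with siRNA 2 and 137% with siRNA 4 in HCC15, and at 116% with siRNA 2 and 120% with siRNA 4 in A427.

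Among all 10 members, 1 (SUZ12, lower) passed an adjusted p of 0.05 with siRNA 2 against control, where 7.62% of all genes did (2.96% higher and 4.66% lower). With siRNA 4 against control 4 passed, SUZ12 and MTF2 lower and JARID2 and PHF1 higher, where 12.5% of all genes did (4.58% higher and 7.95% lower). These contrasts were known when the genes were chosen and they share the control libraries, so the counts are no test of the members and nothing is read from them. They also rested on single libraries: with the HCC15 control left out, 0 members were past the threshold with either siRNA. The median log2 difference of the 10 members was -0.08 with siRNA 2, against -0.01 over all genes, and 0.07 with siRNA 4, against -0.01 over all genes.

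**Figure D2:**
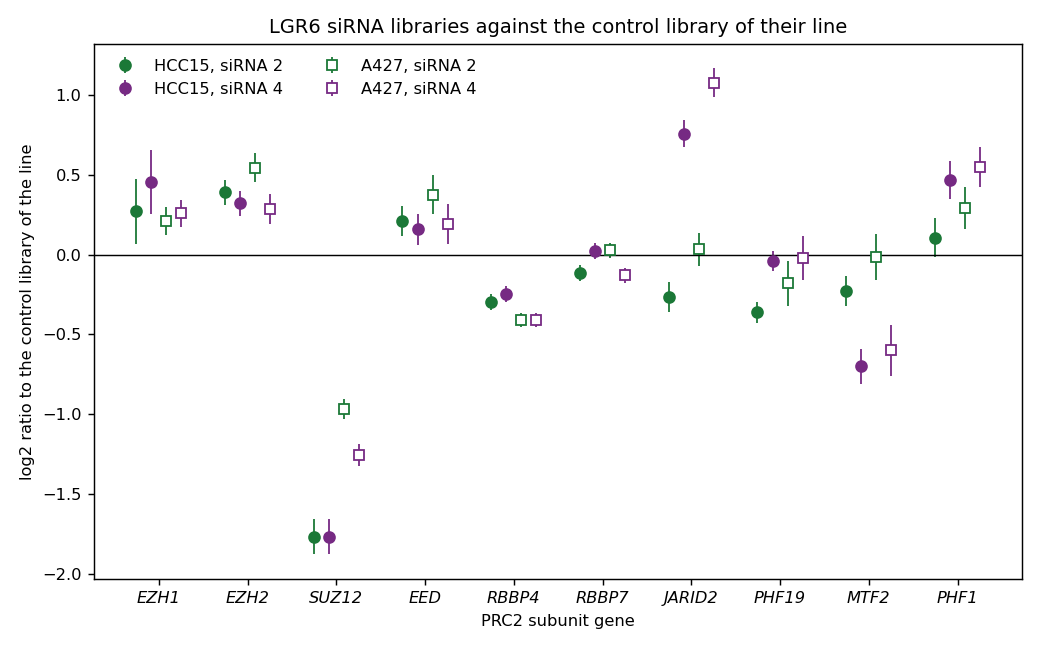
Log2 ratio of normalised read counts to the control library of the same line, for each LGR6 siRNA library and PRC2 subunit gene; bars are exact 95% intervals that cover counting error only. SUZ12 lay at -1.77 and -1.77 in HCC15 and at -0.97 and -1.26 in A427 (siRNA 2, then siRNA 4), and JARID2 was above 0.7 with siRNA 4 alone.

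The LGR6 siRNAs were then compared with each other, a contrast between reagents against the same target; here too, results of these libraries were known when the genes were chosen. With siRNA 4 against siRNA 2, 2 of 10 members passed an adjusted p of 0.05, 1 higher (JARID2) and 1 lower (MTF2). Of all 14481 genes, 16.5% passed, 7.70% higher and 8.84% lower, so the members' share was near the background. On log2(TPM + 1) the split over all genes was 687 higher and 1232 lower, against 1115 higher and 1280 lower in the count fit. The members' median log2 difference was 0.01, against 0.00 over all genes.

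JARID2, which recruits PRC2 to its targets and modulates its activity, was higher with siRNA 4. It had 121 CPM with siRNA 4 in HCC15, against 59.2 CPM with siRNA 2, and 111 CPM with siRNA 4 in A427, against 53.8 CPM with siRNA 2. The control libraries had 71.2 CPM in HCC15 and 52.6 CPM in A427, so the siRNA 4 libraries of both lines stood above the 4 others. How many of all genes show this order was not counted. The fold was 2.04 in HCC15 (exact 95% interval 1.92 to 2.16) and 2.06 in A427 (1.94 to 2.2). The fitted log2 difference was 1.04 (SE 0.13, adjusted p = 0.002593, edgeR quasi-likelihood), higher in 2 of 2 lines. It passed the threshold in each of the 14 alternative settings, the 6 that leave out a library among them. The LGR6 siRNA that left more LGR6 reads in HCC15, siRNA 4 with 77 reads against 39 reads with siRNA 2, was the one with the higher JARID2 level; whether the 2 are linked was not tested.

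MTF2, a PRC2.1 subunit that binds unmethylated CpG DNA, was lower with siRNA 4. It had 43.5 CPM with siRNA 4 in HCC15, against 60.4 CPM with siRNA 2, and 18.6 CPM with siRNA 4 in A427, against 28.0 CPM with siRNA 2. The siRNA 4 library was the lowest of its line in both lines, with control libraries at 70.7 CPM in HCC15 and 28.2 CPM in A427. The ratio was 0.721 in HCC15 (exact 95% interval 0.668 to 0.777) and 0.667 in A427 (0.594 to 0.747), and the fitted log2 difference was -0.53 (SE 0.13, adjusted p = 0.03173, edgeR quasi-likelihood). Leaving out any 1 of the 6 libraries ended this call, with adjusted p between 0.0727 and 0.170 by the same test, while the log2 difference stayed between -0.61 and -0.45. Leaving out both control libraries ended it too (adjusted p = 0.0799, edgeR quasi-likelihood).

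The RefSeq promoters of JARID2 and MTF2 are shown because these are the genes that differed between the siRNAs. They are cut to the stretch before each start that lies outside annotated exons, on the plus strand of GRCh38.p14, with capitals as for SUZ12. JARID2 has 2 starts (chr6:15245819-15246068 and chr6:15248635-15248854) and MTF2 has 1 shown (chr1:93079033-93079234).
JARID2 start 1: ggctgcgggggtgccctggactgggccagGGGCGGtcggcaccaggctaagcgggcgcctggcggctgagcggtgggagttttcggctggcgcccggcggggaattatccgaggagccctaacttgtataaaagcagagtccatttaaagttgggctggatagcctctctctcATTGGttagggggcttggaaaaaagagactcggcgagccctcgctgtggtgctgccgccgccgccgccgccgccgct
JARID2 start 2: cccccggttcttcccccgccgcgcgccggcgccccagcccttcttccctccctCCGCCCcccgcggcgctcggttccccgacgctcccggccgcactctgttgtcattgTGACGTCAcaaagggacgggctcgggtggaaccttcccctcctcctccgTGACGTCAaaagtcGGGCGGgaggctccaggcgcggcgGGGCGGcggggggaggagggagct
MTF2: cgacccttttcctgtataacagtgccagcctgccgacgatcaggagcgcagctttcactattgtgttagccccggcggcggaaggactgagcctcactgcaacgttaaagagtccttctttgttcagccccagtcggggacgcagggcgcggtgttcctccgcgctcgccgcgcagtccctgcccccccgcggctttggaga
The upstream JARID2 stretch holds 1 CCAAT and 1 GC box, and the downstream one 2 cyclic AMP response elements and 3 GC boxes, while these letters are not in the MTF2 stretch.

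The other accessory subunits did not pass the test between the siRNAs. PHF1, whose Tudor domain binds methylated lysine 36 of histone H3, had 52.9 CPM with siRNA 4 in HCC15, against 41.1 CPM with siRNA 2, and 45.0 CPM with siRNA 4 in A427, against 37.6 CPM with siRNA 2. Its log2 difference was 0.31 (SE 0.13, adjusted p = 0.140, edgeR quasi-likelihood). PHF19, its relative in the same Polycomb-like family, had 160 CPM with siRNA 4 in HCC15, against 128 CPM with siRNA 2, and 31.3 CPM with siRNA 4 in A427, against 28.0 CPM with siRNA 2 (log2 difference 0.24, SE 0.12, adjusted p = 0.204, edgeR quasi-likelihood). Both lay higher with siRNA 4 in both lines, and MTF2 of the same family lower. Against control, the PHF19 log2 difference with siRNA 2 was -0.27 in read counts but 0.00 on log2(TPM + 1), so its direction depends on the scale.

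SUZ12 did not pass the test between the siRNAs. The log2 difference of siRNA 4 from siRNA 2 was -0.16 (SE 0.18, adjusted p = 0.587, edgeR quasi-likelihood), with a ratio of 1.0 in HCC15 (exact 95% interval 0.910 to 1.10) and 0.818 in A427 (0.774 to 0.863). EZH2 (-0.16), EED (-0.12), EZH1 (0.11), RBBP4 (0.03) and RBBP7 (-0.01) also lay on these log2 differences without passing, at adjusted p between 0.385 and 0.970 in the edgeR fit. A p above the threshold does not show equal levels.

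HCC15 and A427 differed in most members. Of the 10, 7 passed an adjusted p of 0.05, 4 higher and 3 lower in HCC15, where 76.5% of all genes passed (37.2% higher and 39.3% lower), so the share is near the background. The members' median log2 difference was 0.23, against -0.03 over all genes. EZH1 had 13.7 to 18.7 CPM in the 3 HCC15 libraries, against 71.1 to 85.1 CPM in the 3 A427 libraries, a 4.90-fold lower level (log2 difference -2.29, SE 0.11, adjusted p = 3.735e-07, edgeR quasi-likelihood). EZH2 had 89.5 to 117 CPM in HCC15, against 58.7 to 85.8 CPM in A427 (log2 difference 0.57, SE 0.10, adjusted p = 0.0007052, edgeR quasi-likelihood). The lines therefore differed in opposite directions for the catalytic pair, with no overlap between the CPM ranges of either gene. The share of all genes without overlap between the lines was not counted, so nothing particular to the members is read from it. For EZH2, the HCC15 control library and the A427 siRNA 2 library were within counting error of each other in CPM. In TPM the EZH2 ranges overlapped, at 69.57 to 97.74 in HCC15 against 49.06 to 72.87 in A427.

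The Polycomb-like proteins differed too. PHF19 had 128 to 165 CPM in HCC15, against 28.0 to 31.7 CPM in A427, a 4.96-fold higher level (log2 difference 2.31, SE 0.10, adjusted p = 2.339e-07, edgeR quasi-likelihood). MTF2 had 43.5 to 70.7 CPM in HCC15, against 18.6 to 28.2 CPM in A427 (log2 difference 1.22, SE 0.11, adjusted p = 1.305e-05, edgeR quasi-likelihood). Neither gene's ranges overlapped, a trait whose share over all genes was not counted. PHF1 (log2 difference 0.23, adjusted p = 0.0816, edgeR) and JARID2 (0.23, adjusted p = 0.0797, edgeR) did not pass.

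Of the core subunits, EED was higher in HCC15, with 64.5 to 74.7 CPM there against 34.5 to 44.8 CPM in A427 (log2 difference 0.84, SE 0.10, adjusted p = 8.737e-05, edgeR quasi-likelihood). SUZ12 was lower in HCC15 by a log2 difference of -1.37 (SE 0.15, adjusted p = 4.77e-05, edgeR quasi-likelihood), and its ranges overlapped, at 32.6 to 111 CPM in HCC15 against 88.7 to 212 CPM in A427. Within each siRNA the HCC15 library was below the A427 library, and without the siRNA term SUZ12 no longer passed (adjusted p = 0.0775, edgeR quasi-likelihood). RBBP4 was lower by -0.28 (SE 0.09, adjusted p = 0.01981, edgeR quasi-likelihood), with overlapping ranges of 223 to 274 CPM in HCC15 against 267 to 355 CPM in A427. Its call by edgeR's quasi-likelihood test ended when the A427 control (adjusted p = 0.199), the HCC15 control (adjusted p = 0.227) or the siRNA 4 library of HCC15 (adjusted p = 0.0506) was left out, and when the siRNA term was dropped (adjusted p = 0.167). RBBP7 did not pass (log2 difference -0.13, adjusted p = 0.234, edgeR) but did so on log2(TPM + 1) in limma (adjusted p = 0.0226).

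**Figure D3:**
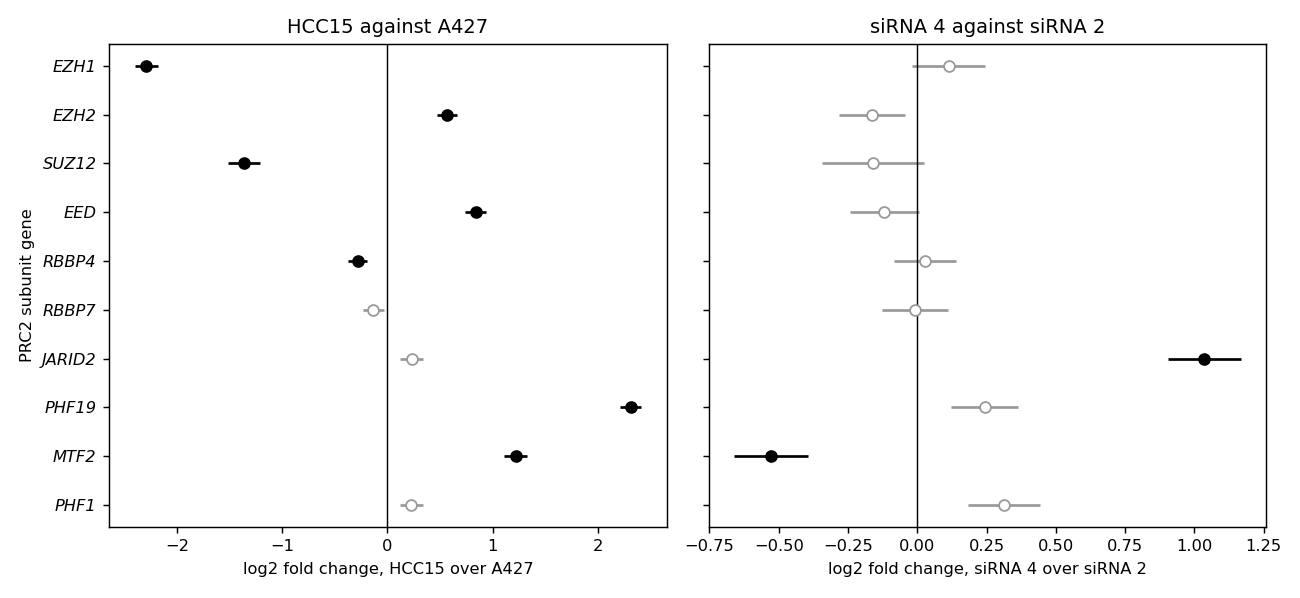
Fitted log2 differences with their standard errors for HCC15 against A427 (left) and for siRNA 4 against siRNA 2 (right). Filled points passed an adjusted p of 0.05 in edgeR's quasi-likelihood test. On the left 7 genes are filled, from EZH1 at -2.29 to PHF19 at 2.31, and on the right JARID2 (1.04) and MTF2 (-0.53).

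Levels per transcript length, in TPM, put the subunits on 1 scale. RBBP7 was the highest of the 10 in all 6 libraries, at 240 to 247 TPM in HCC15 and 267 to 303 TPM in A427. The lowest was EZH1 in the 3 HCC15 libraries (5.93 to 7.78 TPM) and MTF2 in the 3 A427 libraries (10.02 to 15.4 TPM). SUZ12 ranked 9 of 10 with siRNA 2 and 9 with siRNA 4 in HCC15, against 6 with control siRNA. In A427 SUZ12 ranked 4 with siRNA 2 and 6 with siRNA 4, against 2 with control siRNA.

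The catalytic pair was weighted to EZH2 in HCC15, where EZH2 was at 12.7 times the EZH1 TPM with siRNA 2 and 10.7 times with siRNA 4, against 11.7 times with control siRNA. In A427 that ratio was 1.87 with siRNA 2 and 1.51 with siRNA 4, against 1.48 with control siRNA. The summed EZH1 and EZH2 levels were 105, 90.9 and 75.5 TPM in HCC15 and 112, 99.4 and 82.2 TPM in A427 (siRNA 2, siRNA 4 and control). In PHF19's share of the summed PHF1, MTF2 and PHF19 TPM the lines stood apart, with 64.7% to 67.7% in HCC15 against 33.0% to 36.1% in A427.

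SUZ12 and EED bind each other in the core of the complex. The SUZ12 to EED ratio of TPM in HCC15 was 0.185 with siRNA 2 and 0.194 with siRNA 4, against 0.732 with control siRNA. In A427 it was 1.03 with siRNA 2 and 0.958 with siRNA 4, against 2.61 with control siRNA. The SUZ12 to EZH2 ratio was 0.162 with siRNA 2 and 0.169 with siRNA 4 in HCC15, against 0.719 with control siRNA, and 0.734 with siRNA 2 and 0.718 with siRNA 4 in A427, against 2.09 with control siRNA. The A427 libraries with LGR6 siRNA thus had about the SUZ12 to EZH2 ratio of the HCC15 control library. These are ratios of transcripts, and protein was not measured.

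**Figure D4:**
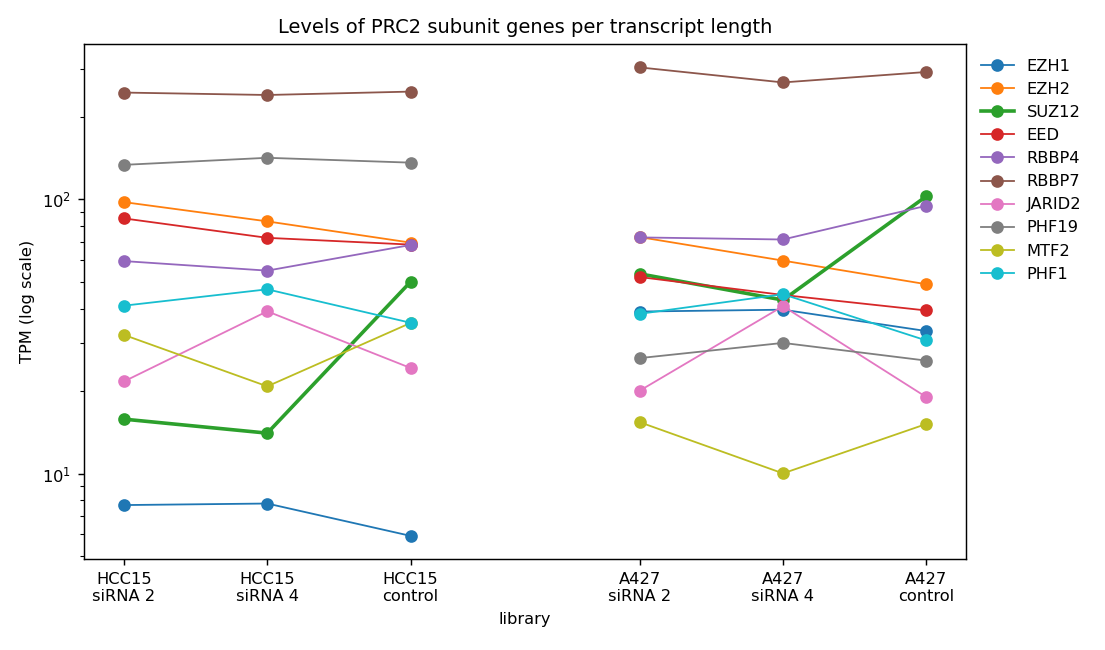
TPM on a log scale for the 10 PRC2 subunit genes in each library, HCC15 left of A427. SUZ12 ranked 9 of 10 in both HCC15 libraries with LGR6 siRNA, against 6 in their control, and RBBP7 stayed highest throughout.

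The members' profiles were compared over the 6 libraries after centring log2 CPM within each line, which leaves few independent values and is a description. EZH2 and EED followed each other closely (Pearson r = 0.991), and SUZ12 ran with RBBP4 (0.900) and against EZH1 (-0.938). JARID2 ran against MTF2 (-0.919) and with PHF1 (0.875). The genes most like SUZ12 among 9796 compared were MAP9 (r = 0.998), DCAF10 (0.998), MAPKAPK5-AS1 (0.997), GCC2 (0.997) and NMD3 (0.997). DCAF10, for instance, was at 46.6 CPM with siRNA 2 and 43.6 CPM with siRNA 4 in HCC15, against 100.6 CPM with control siRNA, and at 34.4 CPM with siRNA 2 and 30.3 CPM with siRNA 4 in A427, against 51.7 CPM with control siRNA. Reads of MAPKAPK5-AS1 and of its antisense partner cannot be told apart, since no source used here says whether strand was used in counting.

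Further partners of PRC2 were read from a list of 5 genes, of which 4 were in the table under the symbols searched. In siRNA 4 against siRNA 2, 0 of these 4 passed by edgeR's quasi-likelihood test, where 16.5% of all genes did. In that fit 0 had an unadjusted p under 0.05, and 0 passed by DESeq2, limma-voom and on log2(TPM + 1). Between the lines 3 of the 4 passed, where 76.5% of all genes did, so the share was near the background. LCORL was higher in HCC15 (log2 difference 1.12), and C17orf96, which encodes the PRC2.1 partner EPOP, was lower (-0.81). AEBP2, the partner of JARID2 in PRC2.2, was lower too (-0.38), but did not pass when either control library was left out. LCOR, whose locus also encodes the PRC2.1 partner PALI1, was named after its values were seen. It had 7.77 TPM with siRNA 2 and 6.99 TPM with siRNA 4 in HCC15, against 19.9 TPM with control siRNA, and 11.1 TPM with siRNA 2 and 11.3 TPM with siRNA 4 in A427, against 19.9 TPM with control siRNA. All 4 LGR6 siRNA values lay below both control libraries. The share of all genes with this order was not counted, so nothing is read from it.

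PRC1 is the Polycomb complex that ubiquitinates histone H2A, and its canonical form reads the PRC2 mark through CBX proteins. Of 14 canonical subunit genes, 4 were higher and 2 lower with siRNA 4 against siRNA 2 by edgeR's quasi-likelihood test, where 7.70% of all genes were higher and 8.84% lower; the median log2 difference was 0.25, against 0.00 over all genes. CBX6, a mark reader, had 64.1 CPM with siRNA 4 in HCC15, against 32.4 CPM with siRNA 2, and 85.8 CPM with siRNA 4 in A427, against 39.4 CPM with siRNA 2 (log2 difference 1.06, SE 0.14, adjusted p = 0.002683, edgeR quasi-likelihood). CBX7 (0.99) and PHC1 (0.51) were the next of the higher genes, followed by BMI1, which was named after its values were seen. SCML2 was lower, with 33.1 CPM with siRNA 4 in HCC15, against 65.8 CPM with siRNA 2, and 31.9 CPM with siRNA 4 in A427, against 64.3 CPM with siRNA 2 (log2 difference -0.999). Its control libraries had 20.7 CPM in HCC15 and 18.5 CPM in A427, so both LGR6 siRNAs lay above control in both lines. PHC3 was lower too (-0.53). CBX6 and SCML2 passed in all 14 alternatives, and CBX7, PHC1 and PHC3 in 6 or 7 of them, each losing its call without either control library among others; on log2(TPM + 1) 2 of the 14 genes passed. BMI1 has a read-through row that shares its reads.

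Between the lines, 10 of the 14 canonical PRC1 genes passed, 1 higher and 9 lower in HCC15, where 76.5% of all genes passed (37.2% higher and 39.3% lower), so the share that passed was near the background. The median log2 difference was -0.75, against -0.03 over all genes. PHC2 was higher (1.52), and the lowest were CBX2 (-2.62), PCGF2 (-1.68) and PHC3 (-1.56). CBX2, another reader of the PRC2 mark, had 4.64 to 9.71 CPM in HCC15, against 33.4 to 53.5 CPM in A427. Of 14 variant PRC1 genes, 7 were higher and 4 lower in HCC15, again a share near the 76.5% of all genes, with PCGF6 (1.79), PCGF5 (1.19) and L3MBTL2 (1.09) the farthest above and AUTS2 (-1.01), PCGF1 (-0.57) and PCGF3 (-0.56) the farthest below. With siRNA 4 against siRNA 2, 1 variant gene passed, where 16.5% of all genes did: MGA, lower (-0.44), and that call was lost without any 1 of the 6 libraries.

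Enzymes that oppose Polycomb silencing were read from 15 genes, 11 of them in the table under the symbols searched (KMT2A, KMT2B, KMT2C and KMT2D were not matched). With siRNA 4 against siRNA 2, 2 were higher and 0 lower by edgeR's quasi-likelihood test, a share near the 16.5% of all genes called. NSD1, a methyltransferase for lysine 36 of histone H3, had 319 CPM with siRNA 4 in HCC15, against 170 CPM with siRNA 2, and 297 CPM with siRNA 4 in A427, against 162 CPM with siRNA 2 (log2 difference 0.89). Its control libraries had 354 CPM in HCC15 and 266 CPM in A427. With siRNA 2 it was thus below control in both lines, and with siRNA 4 below control in HCC15 and above it in A427. KDM6B, a demethylase that removes the PRC2 mark, had 44.1 CPM with siRNA 4 in HCC15, against 24.6 CPM with siRNA 2, and 182 CPM with siRNA 4 in A427, against 109 CPM with siRNA 2 (log2 difference 0.79); without the HCC15 siRNA 4 library it did not pass. Between the lines 1 was higher in HCC15, CREBBP (0.67), and 5 were lower, where 37.2% of all genes were higher and 39.3% lower. EP300, an acetyltransferase of the same histone residue, had 28.3 to 28.8 CPM in HCC15, against 151 to 191 CPM in A427 (log2 difference -2.56), and KDM6B was lower by -2.13. ASXL3 was at 0 reads in all 3 HCC15 libraries, against 2.36 to 4.38 CPM in A427.

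Genes known as PRC2 targets in other cells were taken as a list of 24, of which 20 could be tested. Several of the 24 were near 0, with GATA6 at most 0.86 TPM and FBXO32 at most 1.17 TPM. SOX17, NKX2-2 and OLIG2 were at 0 TPM in HCC15. A change with siRNA could barely be measured in such genes. With siRNA 4 against siRNA 2, 0 of 20 passed by edgeR's quasi-likelihood test, where 16.5% of all genes did, 3 had an unadjusted p under 0.05, and 0 passed by DESeq2, limma-voom or on log2(TPM + 1). Against control, 0 of 20 passed with siRNA 2 (3 at an unadjusted p under 0.05; 0 by the other tools) and 0 with siRNA 4 (2 at an unadjusted p under 0.05; 1 by DESeq2 and 0 by the others) in the same edgeR fit, where 7.62% of all genes passed with siRNA 2 and 12.5% with siRNA 4. The median log2 difference from control was -0.03 with siRNA 2, against -0.01 over all genes, and 0.04 with siRNA 4, against -0.01 over all genes. Between the lines 17 of 20 passed, 3 higher and 14 lower in HCC15, where 37.2% of all genes were higher and 39.3% lower. The median log2 difference was -1.82, against -0.03 over all genes. PAX6, a neural and eye transcription factor, had 3.04 to 3.54 CPM in HCC15, against 98.3 to 104 CPM in A427 (log2 difference -4.95), and GATA4 had 0.0380 to 0.0701 CPM in HCC15, against 15.9 to 16.6 CPM in A427. OLIG2 was at 0 reads in HCC15, against 3.97 to 4.69 CPM in A427. DAB2IP, a tumour suppressor silenced by EZH2 in prostate cancer cells, was higher, with 53.3 to 73.5 CPM in HCC15, against 8.92 to 11.5 CPM in A427 (log2 difference 2.68).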

How the data were processed

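Poly(A) mRNA libraries (KAPA mRNA HyperPrep, per the labels) were processed by the authors with FastQC 0.11.1, STAR 2.5.3a and RSEM 1.3.3; these tools and the build hg19 are named in the submitters' processing notes. No source used here gives the annotation or says whether counting used strand. The authors deposited expected counts and TPM per gene; 5.75% to 6.29% of the expected counts in a library were not whole, and all were rounded. TPM, deposited by the authors, was used for levels and as an alternative scale.

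Counts were fitted with edgeR 4.0.16 in R 4.3.3 (quasi-likelihood, TMM scaling, line plus siRNA), with Benjamini-Hochberg adjustment over 14481 genes that had at least 10 reads in at least 2 libraries and a threshold of 0.05. TMM-scaled CPM divides reads by the scaled library size. Standard errors are the log2 difference divided by the root of the F statistic. Because the design has 1 library per line and siRNA, the spread behind the p-values comes only from the departure between lines. The fit moderates the spread of each gene toward that of all genes, so no p-value rests on its own gene alone. Per the labels, an siRNA number stands for 1 reagent used in each line, and the siRNA term holds that pairing. Ratios between libraries have 95% exact binomial intervals. Alternatives used DESeq2 1.42.0, limma 3.58.1 (voom, and trend on log2(TPM + 1) and log2(TPM + 0.1) over 13569 genes), RLE size factors, no filter, added pseudogene reads, a fit without the controls, a fit without the siRNA term, and leaving out each library. On simulated counts with 200 changed genes among 14481, the siRNA 4 against siRNA 2 fit recovered 82% of 2-fold and 99% of 4-fold changes, and the HCC15 against A427 fit 94% and 99%. The changed genes had a mean CPM of at least 1. Each gene had the spread typical of its level, and unchanged genes had the same mean in both lines. Real genes vary more than this, so recovery in these data can be lower. No 2 libraries agreed within sampling noise (lowest chi-square per degree of freedom 57.0).

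The members and all gene lists were chosen with earlier results of these data known. All members are named; from each other list, up to 3 genes per direction past the threshold with the largest log2 difference and a mean CPM of at least 1 are named per tested comparison, with LCOR and BMI1 added after their values were seen. A gene that this rule would name is not reported here. The genes most like SUZ12 are the 5 with the highest Pearson correlation among genes with a mean CPM of at least 10. The comparisons share libraries, since all come from 1 fit. Promoters come from RefSeq on GRCh38.p14; all 10 members matched, with 15 windows, cut where GENCODE places an exon.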

Additional observations from a re-analysis of the deposited data

How the results depend on the processing

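Each of the 10 members was refitted under 14 alternatives for siRNA 4 against siRNA 2 and for HCC15 against A427, and under 13 for each comparison with control. JARID2 kept its call between the siRNAs in all 14, and MTF2 in 7. Members called with siRNA 4 against siRNA 2 numbered 2, and 1 to 1 when any library was left out and 1 without the control libraries; all genes called numbered 2395, and 1273 without the control libraries and 439 (without the HCC15 siRNA 4 library) to 2220 with a library left out. For siRNA 2 against control 1 member was called, and 2 under DESeq2, on log2(TPM + 1), on log2(TPM + 0.1) and with RLE size factors, and 0 to 2 with a library left out; all genes called numbered 1104, 678 on log2(TPM + 0.1), and 4 (without the HCC15 control) to 1438 with a library left out. The split over all genes there was 429 higher and 675 lower, and 413 higher and 393 lower on log2(TPM + 1). For siRNA 4 against control 4 members were called, and 0 (without the HCC15 control) to 4 with a library left out, 1 without the A427 control and 1 without the HCC15 siRNA 4 library; all genes called numbered 1814, 1145 on log2(TPM + 0.1), and 97 (without the HCC15 control) to 2097 with a library left out. The causes were not tested, beyond the smaller number of libraries, which leaves 1 residual degree of freedom.

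Values not past the threshold that changed sign for siRNA 4 against siRNA 2 were SUZ12 (-0.41 to 0.14 with a library left out), RBBP4 (-0.0693 on log2(TPM + 1), -0.0703 on log2(TPM + 0.1) and -0.0432 to 0.0819 with a library left out) and RBBP7 (0.0020 with no filter and -0.139 to 0.104 with a library left out). With no replicate block, that is without the siRNA term that pairs the libraries of the lines, 5 members were called for HCC15 against A427 in place of 7, and SUZ12 and RBBP4 were lost. That comparison otherwise gave 6 to 8 called members. The largest shift of the median of all genes under another scale was -0.0968 (log2), on log2(TPM + 0.1) for siRNA 4 against siRNA 2. Each member had at least 359 reads in each library, and there was 1 library per line and siRNA.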
